A study of Mus musculus with 12 samples.

Results

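Lag3, Havcr2, Tigit, Tox, Ctla4, Entpd1, Tnfrsf9 and Icos were followed in the T cells of mouse melanomas. They are 8 of the 32285 genes in the matrices, and all 8 are in each of the 6 libraries. The 8 were chosen by name as receptors and regulators of T cell activation and exhaustion, with earlier results of these data known. Shares over all genes stand beside their calls as a scale and not as a test of the set. Tumours of 5 melanoma cell lines, SCC31, SCC32, SCC35, SCC37 and SCC40, had been dissociated, marked with hashtag antibodies, sorted for live cells and profiled with 10x 5′ single-cell RNA sequencing. The deposited hashtag table calls SCC31 and SCC40 rejected and SCC32, SCC35 and SCC37 non-rejected, and lists 43 tumours of days 6, 10, 16 and 20 beside 10 samples of day 0. All 5 lines have tumours of days 6, 10 and 16. Day 20 is given for the 3 non-rejected lines only, so SCC31 and SCC40 end at day 16. No treatment, host strain, sex, age or site of growth is given in the sources used here, and no group without tumour was analysed. Each line stands for itself as a model: 1 cell line with 2 or 3 tumours a day.

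T cells meet an antigen through the T cell receptor, and a second set of surface receptors then raises or restrains the response. Icos and Tnfrsf9 (4-1BB) are costimulatory receptors that appear after activation, Ctla4, Lag3, Tigit and Havcr2 (Tim-3) restrain activated cells, Entpd1 (CD39) is an enzyme that breaks down extracellular ATP, and Tox is a nuclear factor tied to the exhausted state of T cells under lasting antigen. In tumours several of these genes are known to be high in regulatory T cells, which depend on the factor Foxp3, as well as in exhausted CD8 T cells. All 8 are protein-coding genes. On GRCm38, Ctla4 spans chr1:60887000-60915832 and Icos chr1:60977927-61000320, both on the plus strand. Lag3 spans chr6:124904361-124911705, Tigit chr16:43648867-43664146 and Tox chr4:6686353-6991557, all on the minus strand. Tnfrsf9 spans chr4:150914562-150946102, Havcr2 chr11:46454935-46481255 and Entpd1 chr19:40612366-40741602, all on the plus strand.

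Of 55005 cells kept, 3000 met the T cell gate of at least 2 Cd3e, Cd3d and Cd3g UMIs in all and no Lyz2 UMI, and 2992 of these came from tumours. A UMI is 1 counted RNA molecule. CD8 cells (at least 1 Cd8a or Cd8b1 UMI) numbered 829 in tumours, CD4 cells (at least 1 Cd4 UMI and no Foxp3 UMI) 957 and Foxp3+ cells (at least 1 Foxp3 UMI) 187. A further 987 of the 3000 T cells showed none of these genes and 34 met more than 1 gate, and both kinds count only among all T cells. A T cell held a median of 1972 UMIs, from 889 to 2245 over the libraries, so a missing Cd4, Cd8a or Foxp3 UMI does not show that a cell lacked the gene. Counts were summed for each tumour and gate, with at least 10 cells a sum, and are given as CPM, the count scaled to one common total of UMIs for every sum. That left 37 tumours for all T cells, 24 for CD8, 19 for CD4 and 5 for Foxp3+. SCC31 enters thinly, since its own library held 15 T cells and its other tumours came from a library that mixed SCC31, SCC35 and SCC40. Line and library cannot be told apart outside that mixed library, and 5 T cell barcodes occurred in more than 1 library. The gates were checked on lists of genes they did not use, and only part of each list is given here. Foxp3+ sums were higher than CD4 sums for the regulatory genes Il2ra (log2 difference 2.05) and Ikzf2 (3.43), and CD8 sums were higher for the cytotoxic genes Gzma (4.04) and Gzmb (2.80).

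Promoters are shown for the 3 genes that were tested between the T cell gates and that the RefSeq table of start sites holds. That table (build GRCm38.p6) had 5 of the 8 genes, without Lag3, Tox and Icos. Each line below gives the 250 bases before a start site, 5′ to 3′ on the gene's own strand. Capitals mark matches, on either strand, to GGAAA, the core bound by NFAT factors downstream of the T cell receptor, TGANTCA, the AP-1 site, and TGTTTA, the forkhead core read by factors such as Foxp3. No match overlapped another.
Ctla4, chr1:60908775-60909024, plus strand: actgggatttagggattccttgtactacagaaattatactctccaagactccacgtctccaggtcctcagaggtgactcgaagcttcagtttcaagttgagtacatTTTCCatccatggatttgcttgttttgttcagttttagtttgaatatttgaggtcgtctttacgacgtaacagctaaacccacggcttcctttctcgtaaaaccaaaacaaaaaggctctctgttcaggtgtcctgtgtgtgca
Tigit, chr16:43664185-43664434, minus strand: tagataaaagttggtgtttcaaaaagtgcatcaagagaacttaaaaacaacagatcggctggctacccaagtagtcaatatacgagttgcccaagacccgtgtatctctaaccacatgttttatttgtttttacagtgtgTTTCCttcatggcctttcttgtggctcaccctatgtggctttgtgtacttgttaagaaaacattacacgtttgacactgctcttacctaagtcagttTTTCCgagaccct
Tnfrsf9, start 1, chr4:150919905-150920154, plus strand: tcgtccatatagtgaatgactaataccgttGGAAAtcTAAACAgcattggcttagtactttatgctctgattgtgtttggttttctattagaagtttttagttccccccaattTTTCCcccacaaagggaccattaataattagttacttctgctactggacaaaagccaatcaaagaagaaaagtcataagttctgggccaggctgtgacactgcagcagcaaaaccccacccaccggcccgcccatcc
Tnfrsf9, start 2, chr4:150927749-150927998, plus strand: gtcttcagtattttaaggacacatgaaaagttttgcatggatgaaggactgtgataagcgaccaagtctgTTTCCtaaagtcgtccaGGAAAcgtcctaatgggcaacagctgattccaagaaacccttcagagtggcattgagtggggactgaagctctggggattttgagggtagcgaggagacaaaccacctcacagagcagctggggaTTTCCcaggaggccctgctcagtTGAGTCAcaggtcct
GGAAA occurred once before Ctla4, at 2 places before Tigit, at 2 before start 1 of Tnfrsf9 and at 3 before start 2. The AP-1 letters stood only before start 2 of Tnfrsf9 among these 4 windows, and the forkhead letters only before start 1. Of 32851 windows of the same length, 55.57% held GGAAA, 6.75% TGANTCA and 12.03% TGTTTA. A match is a run of letters and not a measured binding site.

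Foxp3+ cells held the most Ctla4, Icos and Tnfrsf9, CD4 cells came next and CD8 cells held the least Ctla4 and Icos. Ctla4, which competes for the ligands of Cd28, stood in the 5 Foxp3+ sums at 889, 1553 and 932 CPM for SCC32 (the day 10 tumours, then day 20), 753 for SCC35 and 578 for SCC40. In CD4 sums Ctla4 ran from 175 to 789 with a median of 351, and in CD8 sums from 13.5 to 249 with a median of 113. The lowest Foxp3+ sum lay above 24 of 24 CD8 sums, while the highest CD4 sum reached into the Foxp3+ range. In a fit of 48 sums with the tumour as a block, Ctla4 was higher in Foxp3+ than in CD4 cells by a log2 difference of 1.28 ± 0.26 (SE; adjusted p = 0.00206). It was lower in CD8 than in CD4 cells, at -1.47 ± 0.18 (adjusted p = 5.08e-07).

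Icos, which binds Icosl on antigen-presenting cells, gave 1148, 1468 and 673 CPM in the SCC32 Foxp3+ sums, 1712 in SCC35 and 776 in SCC40. Its CD4 sums ran from 325 to 807 (median 421) and its CD8 sums from 66.4 to 321 (median 159), so CD4 and CD8 sums did not overlap. Icos was higher in Foxp3+ than CD4 cells by 0.94 ± 0.23 (adjusted p = 0.00863), a call that was lost with at least 3 Cd3 UMIs, at least 20 cells a sum, a stricter cell filter or no low count filter (0.60 to 0.77, adjusted p from 0.0653 to 0.216). CD8 cells were lower than CD4 cells by a log2 difference of -1.56 ± 0.15 (adjusted p = 1.07e-08). Tnfrsf9, whose ligand is Tnfsf9, gave 1129, 1454 and 622 CPM in the SCC32 Foxp3+ sums, 1986 in SCC35 and 685 in SCC40. Its CD4 sums ran from 100 to 650 (median 287) and its CD8 sums from 42.2 to 560 (median 215). Every Foxp3+ sum except the 622 lay above all CD4 and CD8 sums. The log2 difference of Foxp3+ from CD4 cells was 1.64 ± 0.29 (adjusted p = 0.000502), and that of CD8 from CD4 cells, -0.49 ± 0.21, did not pass (adjusted p = 0.105).

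Tigit, which competes with Cd226 for Pvr, and Lag3, a Cd4-like receptor of MHC class II, differed between CD8 and CD4 cells, and their differences between Foxp3+ and CD4 cells did not pass. Tigit CD4 sums had a median of 117 CPM (31.6 to 352) and CD8 sums of 62.2 (0 to 262), and the difference was -0.87 ± 0.21 (adjusted p = 0.00431). In Foxp3+ sums it stood at 259, 452 and 25.9 for SCC32, 411 for SCC35 and 320 for SCC40, 0.80 ± 0.33 above CD4 cells (adjusted p = 0.137) and 1.67 ± 0.34 above CD8 cells (adjusted p = 0.00116). Lag3 had a median of 198 CPM in CD4 sums (19.0 to 421) and 100 in CD8 sums (0 to 392), with a difference of -1.14 ± 0.23 (adjusted p = 0.000537). Its Foxp3+ sums (137 to 528, median 285) differed from CD4 sums by -0.15 ± 0.33 (adjusted p = 0.902). Tox ran from 0 to 149 CPM in CD4, 0 to 136 in CD8 and 0 to 70.6 in Foxp3+ sums, all overlapping, and none of its 3 contrasts passed. Havcr2 (medians 55.5, 54.9 and 36.5 CPM in Foxp3+, CD4 and CD8 sums) and Entpd1 (68.5, 25.0 and 23.5) were too low for this fit and were not tested.

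Of the 6 genes tested, 3 were called higher in Foxp3+ than CD4 cells, where 8.64% of 1863 genes were called in either direction. In CD8 against CD4 cells 4 of 6 were called, all lower (19.4% of all genes), and in Foxp3+ against CD8 cells 4 of 6, all higher (12.5%). The median log2 difference of the 6 was 0.87, -1.0 and 1.90 in turn, beside medians of -0.05, 0.01 and -0.04 over all genes tested. The Foxp3+ sums came from 3 lines, 3 of the 5 from SCC32. Other genes of the pathway, from lists drawn up with earlier results of these data known, moved in part with them. Of 7 other costimulatory receptors tested, 5 differed between CD8 and CD4 cells: Tnfrsf4 (OX40, -4.03), Tnfrsf18 (GITR, -1.94), Cd2 and Tnfrsf1b were lower and Cd27 (0.97) was higher in CD8 cells. Of 8 factors tested 6 were lower in CD8 cells, led by Batf (-1.60) and Nfatc1 (-1.46). Between Foxp3+ and CD4 cells 6 of the 8 factors differed, Ikzf2 higher and 5 lower, among them Bhlhe40 (-2.23) and Nr4a2 (-1.87).

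**Figure D1:**
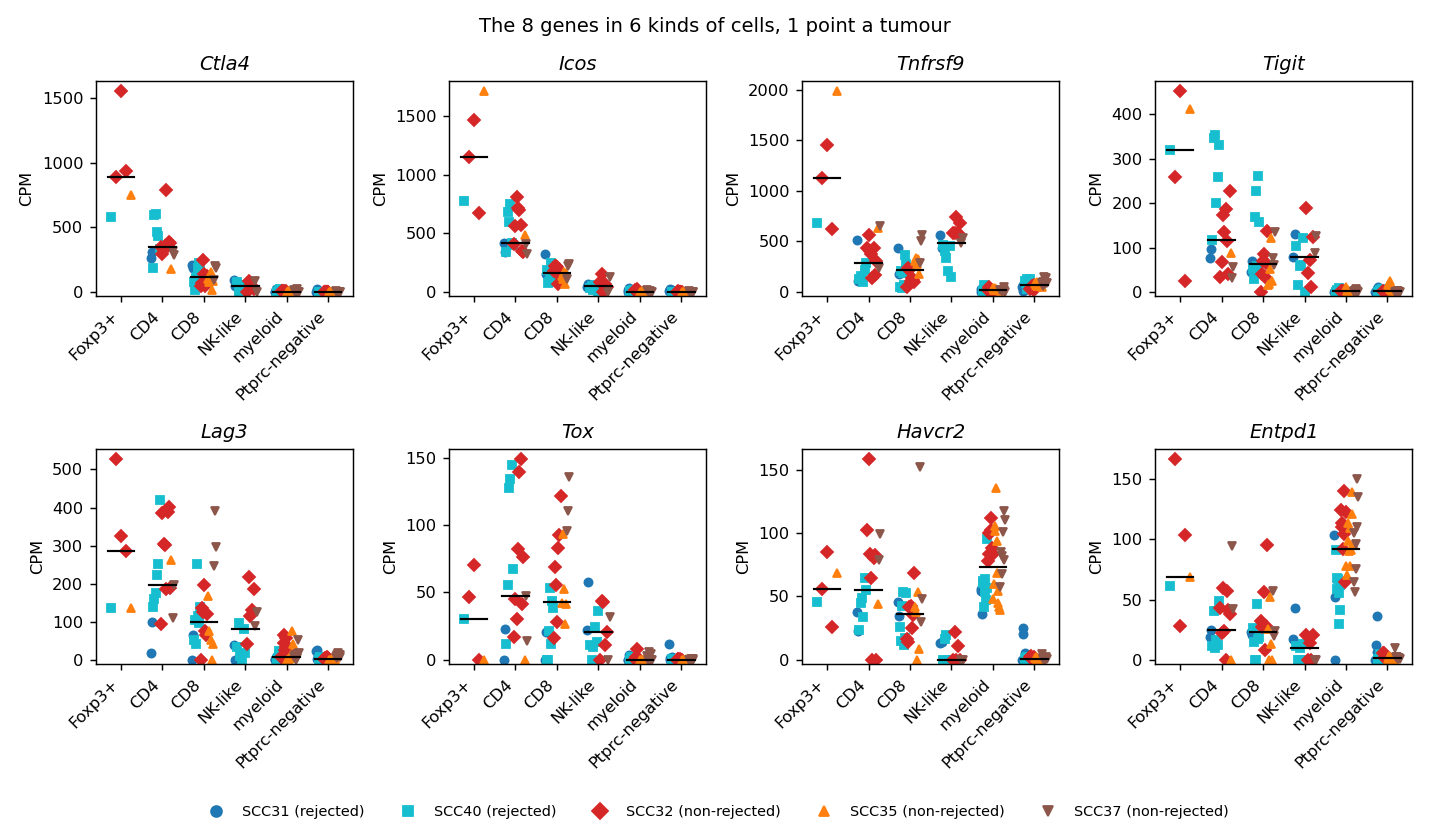
CPM of each of the 8 genes (y axis, linear, a separate scale per gene) in 6 kinds of cells; each point is 1 tumour with at least 10 cells, coloured by line, and the black bar is the median. Ctla4, Icos and Tnfrsf9 have their highest medians in Foxp3+ cells (889, 1148 and 1129 CPM), and Havcr2 and Entpd1 in myeloid cells (73.2 and 91.7 CPM).

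Single cells were also read after thinning each cell to 1000 UMIs, which left out 106 CD8, 68 CD4 and 20 Foxp3+ cells with fewer. In 167 Foxp3+ cells 50.3% then held UMIs of at least 3 of the 8 genes (exact 95% binomial interval 42.5% to 58.1%), against 18.6% of 889 CD4 cells (16.1% to 21.3%) and 6.92% of 723 CD8 cells (5.18% to 9.02%). No member was seen in 6.59% of Foxp3+, 20.9% of CD4 and 43.4% of CD8 cells. Tnfrsf9 alone was seen in 63.5%, 23.4% and 18.0% of them (unthinned 85.6%, 38.0% and 34.7%). In thinned myeloid cells, which should lack T cell receptors, Ctla4 was seen in 0.411% and Icos in 0.542% (median depths 2271 UMIs in myeloid, 2391 in Foxp3+ and 2077 in CD4 cells). These intervals cover counting error only and cells of 1 tumour are not replicates, so no test was made between cells.

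Across the 48 sums of the 3 gates, Ctla4 and Icos had the most alike levels among the 8 genes, with r = 0.893 on log2(CPM + 10). The genes most like Icos among 5574 were Tnfrsf4 (0.901), Ctla4 and Maf (0.860), and those most like Ctla4 were Icos, Tnfrsf18 (0.875) and Tnfrsf4 (0.853). Tigit was closest to Rilpl2 (0.777), Lag3 to Ucp2 (0.736) and Tox to Prkch (0.71). Tox with Icos gave -0.01 and Tox with Tnfrsf9 -0.10. These are descriptions over sums that share tumours, libraries and gates.

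In all T cells Lag3, Tigit and Tox were higher at the end of the series than at day 6, and Lag3 already at day 10. The last day was day 20 in SCC32, SCC35 and SCC37 and day 16 in SCC40. SCC31 had no sum of 10 T cells after day 10 and enters the day 10 contrast only. In bulk sums of this kind a larger share of a T cell subset and more RNA per cell cannot be told apart. Among all T cells the median share of CD8 cells was 17.6% at day 6, 15.6% at day 10 and 51.4% at day 16 or 20, and that of CD4 cells 21.3%, 38.0% and 11.1%.

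Tox was the gene with the clearest separation by day. At day 6 it stood at 23.1 CPM in SCC31, 9.88 and 23.2 in SCC32, 20.5 and 15.1 in SCC35, 0 and 0 in SCC37 and 12.8, 16 and 18.7 in SCC40. The last-day tumours gave 72.2 and 111 in SCC32, 55.0, 43.8 and 45.9 in SCC35, 97.8 and 117 in SCC37 and 108 and 52.4 in SCC40. Every last-day sum lay above every day 6 sum. Over the 4 lines 17 Tox counts in 1148746 UMIs at day 6 compared with 205 in 2492885 UMIs on the last day, a 5.56-fold ratio of pooled CPM (exact 95% counting interval 3.39 to 9.73). The fitted log2 change, averaged over lines, was 3.53 ± 0.58 (adjusted p = 0.000751). Its size rests in part on SCC37, where day 6 held no count, so the pooled ratio is the safer size. Day 10 lay between, from 0 to 93.6 CPM with a median of 43.2, and did not pass against day 6 (1.99 ± 0.67, adjusted p = 0.178). The Tox call held in the 12 alternatives run and in 37 fits that left out 1 tumour each.

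Lag3 stood at day 6 at 11.5 CPM in SCC31, 46.1 and 127 in SCC32, 61.6 and 22.7 in SCC35, 39.3 and 39.9 in SCC37 and 109, 56.1 and 112 in SCC40. At day 10 it stood at 112 and 83.3 in SCC31, 308 and 212 in SCC32, 119, 154 and 113 in SCC35, 131 and 141 in SCC37 and 115, 140 and 136 in SCC40. In SCC40 the day 6 tumours at 109 and 112 lay just below that line's day 10 range, and over all lines the ranges of the 2 days overlapped. The log2 change to day 10 was 1.78 ± 0.28 (adjusted p = 0.00247) and to the last day 1.61 ± 0.30 (adjusted p = 0.00173). The pooled ratios were 2.40 (1.92 to 3.03) and 2.52 (2.0 to 3.21). In the mixed library alone, the day 6 and day 10 levels of Lag3 were 11.5 and 83.3 CPM in SCC31, 22.7 and 113 in SCC35, and 112 and 136 in SCC40. Without the mixed library the day 10 call was lost (adjusted p = 0.077), as it was without the SCC31 day 10 tumour 3 (0.0644) and with at least 20 cells a sum. The last-day call was lost with at least 20 cells a sum (0.83, adjusted p = 0.288) and with at least 3 Cd3 UMIs (0.82, adjusted p = 0.17).

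Tigit ran from 0 to 112 CPM at day 6 (median 71.5), from 49.2 to 312 at day 10 (113) and from 48.7 to 286 at day 16 or 20 (87.7). Its log2 change was 1.21 ± 0.30 to day 10 (adjusted p = 0.0502, just over the threshold) and 1.19 ± 0.32 to the last day (adjusted p = 0.0384), and the second call was lost in 7 of 12 alternatives and without any 1 of 8 tumours: SCC32 day 6 tumour 1 and day 20 tumour 2, SCC35 day 6 tumour 3 and day 20 tumour 2, SCC37 day 6 tumour 2 and day 20 tumour 1, and SCC40 day 6 tumour 3 and day 16 tumour 1 (adjusted p up to 0.129). Ctla4 had medians of 202, 399 and 297 CPM at the 3 stages, Icos of 349, 472 and 288, Tnfrsf9 of 342, 311 and 333, Havcr2 of 35.1, 51.0 and 41.7 and Entpd1 of 19.0, 26.6 and 27.5, and none of these passed in either contrast. Their last-day changes were 0.16 ± 0.25 for Ctla4, -0.31 ± 0.22 for Icos, 0.00 ± 0.23 for Tnfrsf9, 0.35 ± 0.34 for Havcr2 and 0.25 ± 0.43 for Entpd1.

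One of 8 genes was called at day 10, where 0.515% of 6017 genes were, and 3 of 8 on the last day, where 2.63% were. The median change of the 8 was 0.60 and 0.30, beside 0.12 and 0.16 over all genes. With the size factors of DESeq2 (RLE) in place of TMM the share of calls that were higher went from 87.1% to 66.7% at day 10 and from 79.1% to 56.9% on the last day, and the median of all genes on the last day from 0.16 to 0.03. By the last day 2 of 7 other inhibitory receptors were higher, Klrc1 (3.70) and Pdcd1 (1.44), and 2 of 8 costimulatory receptors, Cd27 (1.30) and Tnfrsf1b (1.13). The factors Tbx21 (1.86) and Nr4a2 (0.88) rose of 11 tested, as did Top2a, a gene of dividing cells (1.44), of 7 activation and cycling genes. None of 8 memory genes was called. At day 10 Bhlhe40 (0.84) and Tbx21 (1.63) rose. The T cell receptor gene Trac also went from a median of 217 CPM at day 6 to 395 at day 10 and 360 later, the summed macrophage markers in T cell sums from 170 to 127 and 73.3, and the summed fibroblast markers from 79.2 to 91.4 and 132 (highest sum 3317); all 8 macrophage and all 3 fibroblast markers had counts. The part of these in the day differences was not tested.

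**Figure D2:**
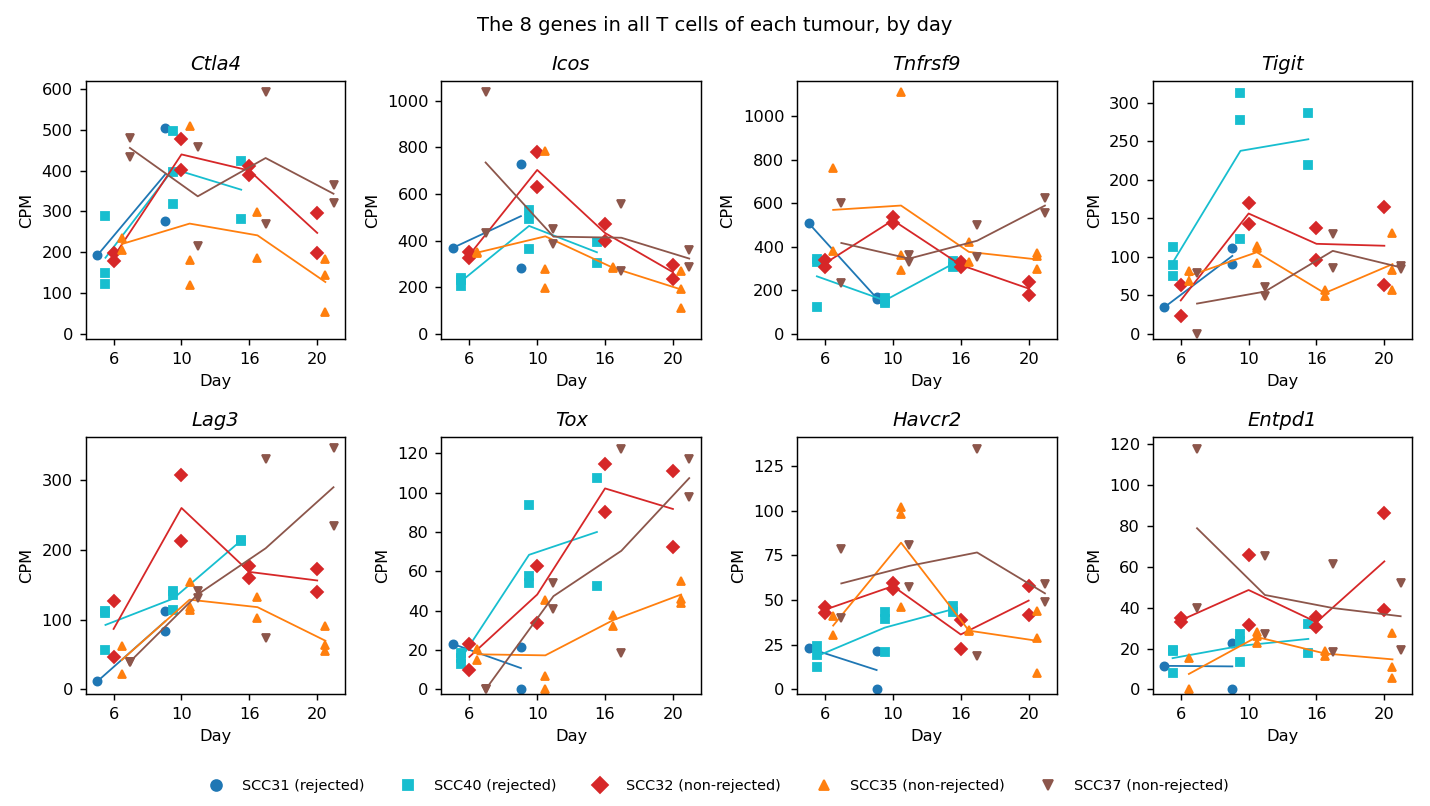
CPM in all T cells (y axis, linear, a separate scale per gene) by day (x axis, evenly spaced); each point is 1 tumour, coloured by line, and lines join the means of a line's tumours. Tox is below 24 CPM in every day 6 tumour and between 43.8 and 117 CPM in the last-day tumours, and the rejected lines SCC31 and SCC40 have the lowest Tnfrsf9 at day 10.

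Within CD8 cells day 6 rested on 4 sums: SCC31 tumour 3, SCC32 tumour 1 and SCC40 tumours 1 and 3. Tox had 1 count in their 210153 UMIs, in the SCC32 tumour (16.3 CPM), and was at 0 in the other 3 sums. At day 10 it stood at 20.7 CPM in SCC31, 68.8 and 55.4 in SCC32 and 21.1, 53.2 and 11.5 in SCC40. At day 20 it stood at 92.7 and 122 in SCC32 and at day 16 at 43.6 and 38.2 in SCC40, all above the day 6 sums. Lines without a CD8 sum at day 6 were in the same range late: 26.9 to 93.6 in SCC35 and 95.3 to 136 in SCC37. Over SCC32 and SCC40 the pooled CPM went from 6.01 to 75.0, a 12.5-fold ratio whose counting interval runs from 2.14 to 503 because it rests on 1 count at day 6. The fitted change was 3.88 ± 1.10 (adjusted p = 0.0418).

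Tigit in CD8 cells stood at day 6 at 45.8 CPM in SCC31, 0 in SCC32 and 52.6 and 29.8 in SCC40. The last-day sums gave 64.2 and 138 in SCC32 and 262 and 157 in SCC40, again above every day 6 sum. The pooled ratio was 6.25 (2.36 to 23.4; 4 counts against 98) and the fitted change 4.41 ± 1.19 (adjusted p = 0.036), of which the SCC32 part starts from a sum without a count. Lag3 stood at 0, 0, 52.6 and 104 at day 6 and at 64.2, 122, 96.0 and 138 on the last day, which overlapped. The fitted 3.41 ± 1.33, whose SCC32 part starts from a sum without a count, did not pass (adjusted p = 0.129). Tigit and Tox were the 2 genes called of 7 tested, where 6.39% of 2567 genes were called. Neither call held with a stricter hashtag ratio, without Scrublet, without the mixed library, with the replicate block or without the SCC32 day 6 tumour 1 (adjusted p = 0.288 for Tigit and 0.286 for Tox). Without that tumour SCC32 has no CD8 sum at day 6, so SCC40 alone enters the contrast. With DESeq2 and with at least 3 cells a sum Tigit was not called and Tox gave no value. Over all single tumours left out, the Tigit call held in 20 of 24 fits and the Tox call in 12 of 23. Tigit was also lost without SCC32 day 20 tumour 2, SCC40 day 6 tumour 3 or SCC40 day 16 tumour 1, and Tox without any 1 of the sums of those 2 lines at day 6 or the last day, or of SCC32 or SCC40 day 10 tumour 1, SCC35 day 20 tumour 1 or SCC37 day 20 tumour 1. The 3 other inhibitory receptors tested were all called higher: Klrc1 (4.87), Cd160 (4.40) and Pdcd1 (2.98). The costimulatory Cd226 (6.31), which shares ligands with Tigit, and Cd2 (2.21) rose of 7 tested, and none of 7 factors was called. Klf2, a factor of circulating resting T cells, fell (-1.74) of 6 memory genes, but was at 0.78 with at least 3 cells a sum. Fitted sizes in this contrast rest in part on 1 SCC32 day 6 sum of 10 cells. Pooled over CD8 cells of all tumours, Pdcd1 went from 49.2 CPM at day 6 to 191 at day 16 or 20. The T cell receptor genes also went from 211 to 391 (Trac), 183 to 309 (Trbc1) and 440 to 613 (Trbc2), and their part was not tested. Over all genes the 164 calls of the contrast went to 11 with hashtag ratio 4 and to 12 without the SCC32 day 6 tumour 1. The share of calls that were higher was 42.7% with TMM and 31.4% with RLE, which moved the median of all genes from 0.10 to -0.06. The summed macrophage markers in CD8 sums had a median of 132 CPM at day 6 and 69.0 late, the NK markers 70.5 (52.6 to 91.7) and 33.2 (0 to 209), and the fibroblast markers 41.2 (0 to 3031) and 90.6 (8.73 to 5163). Ncr1 of the NK list was at 0, and the part of these was not tested.

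Between days 6 and 10 no member was called in CD8 cells, where 0.195% of genes were (5 genes by edgeR and 9 by DESeq2), although 4 of 7 had an unadjusted p under 0.05. Lag3 had a fitted change of 4.46 ± 1.31 (adjusted p = 0.179) and a pooled ratio of 2.52 (1.26 to 5.72). The fitted size rests in part on the day 6 sums of SCC31 and SCC32, which held no Lag3 count, so the pooled ratio is the safer size. Icos and Tnfrsf9 had pooled ratios of 1.06 (0.73 to 1.56) and 0.85 (0.59 to 1.27). Of 2567 genes, 0.0% were called different between the lines SCC31, SCC32 and SCC40 in CD8 cells at day 10 (90 at an unadjusted p under 0.05, and 1 by DESeq2). For 0.0% a change from day 6 to day 10 that differed between lines was called (205 and 2).

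In CD4 cells Tox, Tigit and Lag3 had higher pooled levels late, and none passed the test. Over SCC32 and SCC40 the pooled last-day ratio was 5.29 for Tox (2.15 to 16.8), 3.63 for Tigit (2.19 to 6.4) and 1.94 for Lag3 (1.37 to 2.80). The fitted changes were 2.08 ± 0.86, 1.22 ± 0.49 and 0.99 ± 0.44 (adjusted p = 0.27, 0.262 and 0.322). Tox stood at day 6 at 0 CPM in SCC31, 17.1 and 45.3 in SCC32 and 11.7 in SCC40, and on the last day at 41.4 and 76.0 in SCC32 and 144 and 67.1 in SCC40, which overlapped by the 45.3. The summed macrophage markers in CD4 sums had a median of 461 CPM at day 6, 117 at day 10 and 42.2 late, with counts of all 8 markers. Pooled over CD4 cells of all tumours, Trac went from 178 CPM at day 6 to 394 at day 16 or 20. The other T cell receptor genes went from 188 to 231 (Trbc1) and from 366 to 508 (Trbc2). The part of these in the day differences was not tested. Tnfrsf9 went the other way to day 10, with a pooled ratio of 0.56 (0.45 to 0.70) and a fitted change of -0.80 ± 0.33 (adjusted p = 0.159). At day 10 0 of 7 genes were called, 6 at an unadjusted p under 0.05, where 6.05% of 3006 genes were called by edgeR and 73 genes by DESeq2. Within SCC40 alone Ctla4 was called, 1 of 7 genes where 5.66% of all genes were (1.60 ± 0.41, adjusted p = 0.0284), from 187 CPM in the line's 1 day 6 sum of 10 cells to between 463 and 607 at day 10. On the last day 0 of 7 were called, 4 at an unadjusted p under 0.05, where 0.765% of genes were called by edgeR and 26 genes by DESeq2. At day 10 the factors Tbx21 (4.42), Nr4a2 (1.30), Nr4a3 (1.09), Nr4a1 (0.92) and Id2 rose of 10 tested, Cd226 (3.09) and Cd28 (1.05) of 8 costimulatory receptors and Pdcd1 (1.47) of 4 inhibitory ones, and the cytokine gene Ifng fell (-1.43). With at least 20 cells a sum Ifng was at 0.66 and Nr4a1 at -0.036. With RLE the share of calls that were higher went from 67.6% to 54.7%. Foxp3+ cells had no sum of 10 cells at day 6, so no day contrast could be fitted for them.

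**Figure D3:**
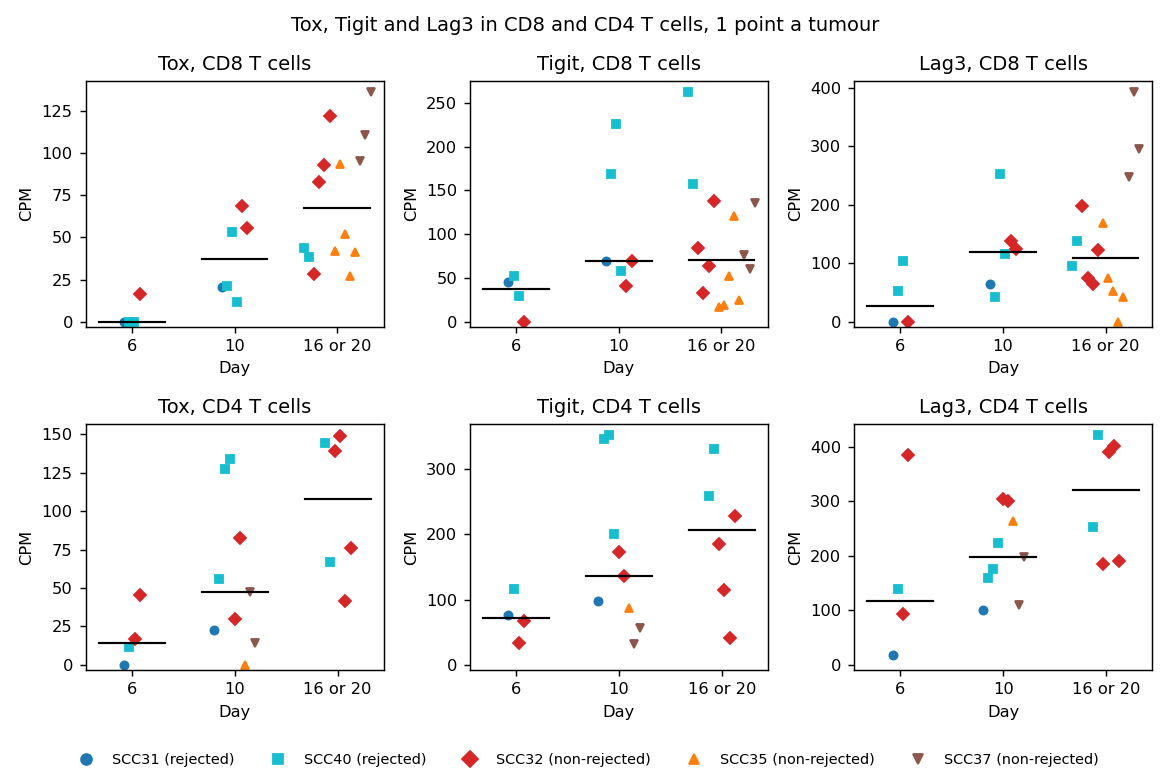
CPM of Tox, Tigit and Lag3 (y axis, linear) in CD8 (top) and CD4 (bottom) T cells by day (x axis); each point is 1 tumour with at least 10 cells, coloured by line, and the bar is the median. In CD8 cells 3 of the 4 day 6 sums hold no Tox count, and in CD4 cells SCC40 has the highest Tigit at day 10.

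The lines differed in Tnfrsf9 and Tigit at day 10. In all T cells Tnfrsf9 stood at 168 and 161 CPM in SCC31 and 165, 144 and 152 in SCC40, the rejected lines. It stood at 537 and 508 in SCC32, 363, 294 and 1111 in SCC35 and 328 and 363 in SCC37. All 5 tumours of rejected lines lay below all 7 of the others. The test of any difference among the 5 lines, added to this gate after the data were seen, called Tnfrsf9 (adjusted p = 0.00954) and Tigit (0.0206), 2 of 8 genes where 1.46% of 6017 were called. Tigit was ordered otherwise: 312, 277 and 122 CPM in SCC40, 169 and 143 in SCC32, 112 and 90.2 in SCC31, 92.3, 112 and 113 in SCC35 and 49.2 and 60.6 in SCC37. SCC37 lay lowest, SCC31 and SCC35 overlapped, and both SCC32 tumours lay above these. The Tnfrsf9 call held in each alternative and without each single tumour, and that of Tigit was lost without any 1 of the SCC37 day 10 tumours or SCC40 day 10 tumour 1 or 2 (adjusted p up to 0.106).

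In CD4 cells SCC31 and SCC40 were again lowest for Tnfrsf9 and SCC37 lowest for Tigit. Tnfrsf9 stood at 111 CPM in SCC31 and 160, 137 and 100 in SCC40, and at 407 and 377 in SCC32, 636 in SCC35 and 237 and 650 in SCC37 (adjusted p = 0.0164). Tigit stood at 345, 352 and 201 in SCC40, 173 and 136 in SCC32, 97.6 in SCC31, 87.7 in SCC35 and 31.6 and 56.6 in SCC37 (adjusted p = 0.0176). Ctla4 was highest in SCC40 (598, 607 and 463 CPM, against 175 to 354 in the other lines; adjusted p = 0.0464). Icos was highest in SCC32 and SCC40 (597 to 807, against 325 to 483 elsewhere; adjusted p = 0.0275). These were 4 of 7 genes, where 6.22% of 3006 genes were called in this test, which was also added after the data were seen. The Tigit call held throughout. That of Tnfrsf9 was lost without the mixed library (adjusted p = 0.0983) and with at least 3 cells a sum. Those of Icos and Ctla4 were lost without Scrublet, with the replicate block, with at least 3 cells a sum and without any 1 of the SCC32 or SCC37 day 10 tumours, Icos also without the SCC31 tumour, and Ctla4 also without the SCC35 tumour or any 1 SCC40 tumour of day 10 or 16. In CD8 cells, with 3 lines, Tnfrsf9 was 179 in SCC31, 234 and 222 in SCC32 and 42.2, 186 and 69.1 in SCC40.

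Of the 8 genes, Tnfrsf9 and Havcr2 did not overlap between tumours of rejected and non-rejected lines in all T cells at day 10, where 0.665% of 6017 genes did not overlap. Havcr2 ran from 0 to 43.5 CPM in the 5 rejected-line tumours and from 46.2 to 102 in the other 7. In CD4 cells Tnfrsf9 alone of the 7 genes tested did not overlap (100 to 160 CPM in 4 rejected-line tumours, 237 to 650 in 5 others), where 4.96% of 3006 genes did not. The outcome belongs to the line and not to the tumour, and with 2 lines against 3 an exact two-sided permutation test over line means cannot go below p = 0.2. That was the value for Tnfrsf9 and for Havcr2 in all T cells at day 10 (adjusted p = 0.533 over the 8 genes). Beside this, Foxp3+ cells were 0% to 2.02% of T cells in the rejected-line tumours of day 10 and 0% to 20% in the others, and the part of this in the difference was not tested. The summed macrophage markers in the T cell sums ran from 42.5 to 139 CPM (median 58.3) in rejected-line tumours and from 41.9 to 941 (median 175) in the others, and their part was not tested. In the mixed library alone, with 1 tumour a line, the order was the same for Tnfrsf9, with 161 in SCC31, 152 in SCC40 and 1111 in SCC35. These tumours held 292, 247 and 30 T cells in turn, of which 1.37%, 2.02% and 16.7% were Foxp3+.

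On the other days Tnfrsf9 overlapped between the lines. At day 6 the SCC31 tumour stood at 508 CPM and those of SCC40 at 122, 328 and 343, of which the 122 lay below the range of the non-rejected lines (236 to 760) and the others within it. At day 16 SCC40 was at 308 and 333 CPM. A change from day 6 to day 10 that differed between lines was not called for any gene in all T cells (0.0% of 6017; 341 genes at an unadjusted p under 0.05, 0 by DESeq2), and the adjusted p of Tnfrsf9 was 0.746. For the mean of days 6 and 10, rejected minus non-rejected lines was -189 CPM for Tnfrsf9 (272.6 against 461.3; exact permutation p = 0.2, adjusted p = 0.8), and none of the 8 genes was called in all T, CD4 or CD8 cells. With 2 lines against 1 in CD8 cells the smallest possible exact permutation p was 0.667.

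**Figure D4:**
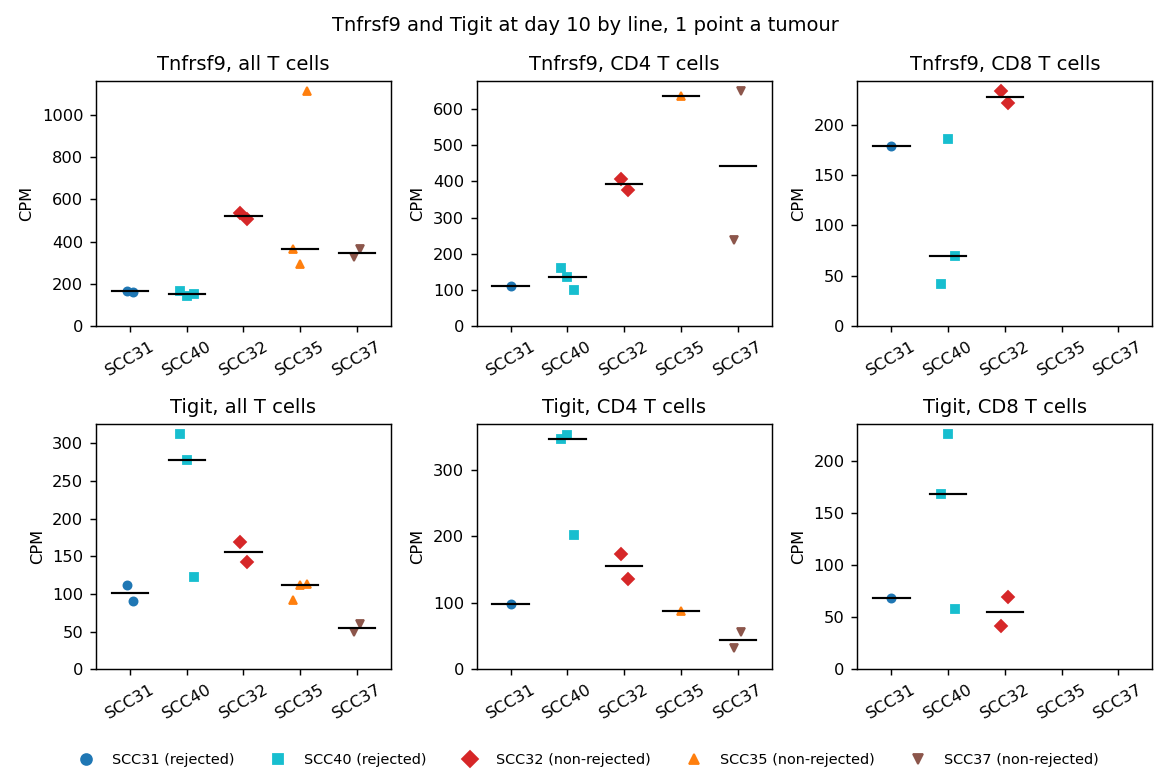
CPM at day 10 (y axis, linear, from 0) of Tnfrsf9 (top) and Tigit (bottom) by line (x axis) in all T, CD4 and CD8 cells; each point is 1 tumour with at least 10 cells and the bar is the median. Tnfrsf9 in all T cells is between 144 and 168 CPM in SCC31 and SCC40 and between 294 and 1111 CPM in the other lines.

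Outside the T cells each of the 8 genes had a higher median than Trac in at least 1 kind of cell. NK-like cells (Ncr1 or Klrb1c, no Cd3 and no Lyz2 UMI) held Tnfrsf9 at 145 to 742 CPM over 15 tumours (median 487) and Tigit at 0 to 188 (79.5), while their Trac median was 4.41 CPM. Lag3 had a median of 80.7 CPM in the same cells, Icos 48.5, Ctla4 42.8, Tox 20.6, Entpd1 9.79 and Havcr2 0. The T cell receptor genes Trbc1 and Trbc2 had medians of 185 and 111 CPM there, above those of the 8 genes except Tnfrsf9. Myeloid cells (at least 2 Lyz2 and no Cd3 UMIs) held Havcr2 at 36.0 to 136 CPM (median 73.2) and Entpd1 at 0 to 150 (91.7), and their Trac median was 2.53. Ptprc-negative cells, which have no UMI of the leukocyte gene Ptprc, of Cd3 genes or of Lyz2, held Tnfrsf9 at 12.4 to 150 CPM (median 70.9), with a Trac median of 0.963. Ctla4 and Icos had Ptprc-negative medians of 0.518 and 1.16 CPM, near that of Trac. Thinned to 1000 UMIs, 6.49% of 30244 Ptprc-negative cells held a Tnfrsf9 UMI (24.3% unthinned, at a median of 5131 UMIs), against 0.106% with Ctla4 and 0.169% with Icos.

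Lag3 rose in myeloid cells. At day 6 its 11 sums ran from 0 to 12.2 CPM (median 2.66, 20 counts in all). The last-day sums gave 33.8 and 57.9 in SCC32, 75.4, 41.6 and 21.3 in SCC35 and 51.0 and 19.3 in SCC37, and at 0 and 21.3 in SCC40. All sums of the 3 non-rejected lines lay above day 6, and those of SCC40 overlapped it. The fitted change was 3.08 ± 0.51 (adjusted p = 3.08e-05). Without SCC40 day 16 tumour 2, which leaves that line with 1 sum at 0, it was 1.61 (adjusted p = 1.0). Tnfrsf9 fell in the same cells (-1.26 ± 0.39, adjusted p = 0.0241), from a median of 24.3 CPM at day 6, a call lost with DESeq2, with hashtag ratio 4, without the mixed library and without any 1 of SCC32 day 6 tumour 2 and day 20 tumour 2, SCC35 day 20 tumour 3, SCC37 day 6 tumour 1 and day 20 tumour 2, and SCC40 day 6 tumour 3. These were 2 of 6 genes tested, where 14.3% of 8181 genes were called, and at day 10 none of 6 was called (2 at an unadjusted p under 0.05; 7.98% of genes by edgeR, 580 genes by DESeq2). Of 9 ligands tested in myeloid cells at day 10, Tnfsf9, the ligand of Tnfrsf9, rose (1.24), and Lgals9 (-0.72), a ligand of Havcr2, Lgals3 (-0.53), a ligand of Lag3, and Cd86 (-0.57), a ligand of Ctla4, fell. The Tnfsf9 change was -0.091 without SCC31 day 10 tumour 3, and its call was lost without SCC37 day 10 tumour 1 (1.02) or SCC40 day 10 tumour 2 (0.98). On the last day Tnfsf9 (1.47), Lgals9 (-0.42) and Lgals3 (-0.56) were called in the same directions.

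In Ptprc-negative cells Entpd1 fell by 1.71 ± 0.39 on the log2 scale at day 10 (adjusted p = 0.00467) and by 2.56 ± 0.45 on the last day, from a median of 2.90 CPM at day 6 to 0.560 at day 16 or 20. Havcr2 fell by 1.56 ± 0.43 and 1.2 ± 0.43 (adjusted p = 0.0226 and 0.04). Without SCC31 day 6 tumour 3 the day 10 values were -1.24 for Entpd1 (adjusted p = 0.278) and -1.39 for Havcr2 (0.131), and Havcr2 was lost without 4 single tumours in all at day 10 and without 10 on the last day (-1.22 to -0.98). These were 2 of 7 genes in each contrast, where 7.37% and 24.8% of 13007 genes were called. Over all tumours the medians of Entpd1 and Havcr2 in Ptprc-negative cells were 1.29 and 1.06 CPM, near the Trac median of 0.963. In myeloid cells their medians were 91.7 and 73.2 CPM. The part of leukocyte RNA in the Ptprc-negative changes was not tested. The ligands Cd86 (-1.97) and Cd80 (-1.61) fell at day 10, and Icosl (-2.14), Lgals3 (-0.54) and Lgals9 (-0.33) fell with them by the last day, 5 of 9 tested. The change of Tnfrsf9 from day 6 to day 10 differed between lines (adjusted p = 0.027, where 4.19% of genes were called), and the call was lost without any 1 of 7 tumours of SCC32, SCC37 and SCC40 (adjusted p from 0.0506 to 0.0983). It went from 108, 90.6 and 127 CPM to 33.7, 46.2 and 49.9 in SCC40, without overlap, and from 93.0 and 63.3 to 103 and 150 in SCC37, while SCC32 went from 28.0 and 39.0 to 57.9 and 37.8. In the Ptprc-negative cells of the day 0 samples Tnfrsf9 was already present, at 2.38 CPM in SCC32, 14.8 in SCC31, 20.5 in SCC40, 26.3 in SCC37 and 51.9 in SCC35 (2 samples a line, pooled). Tigit stood at 17.3 CPM in the SCC35 day 0 cells (exact Poisson interval 14.2 to 20.9) and at 0.235 to 2.74 in the other lines.

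**Figure D5:**
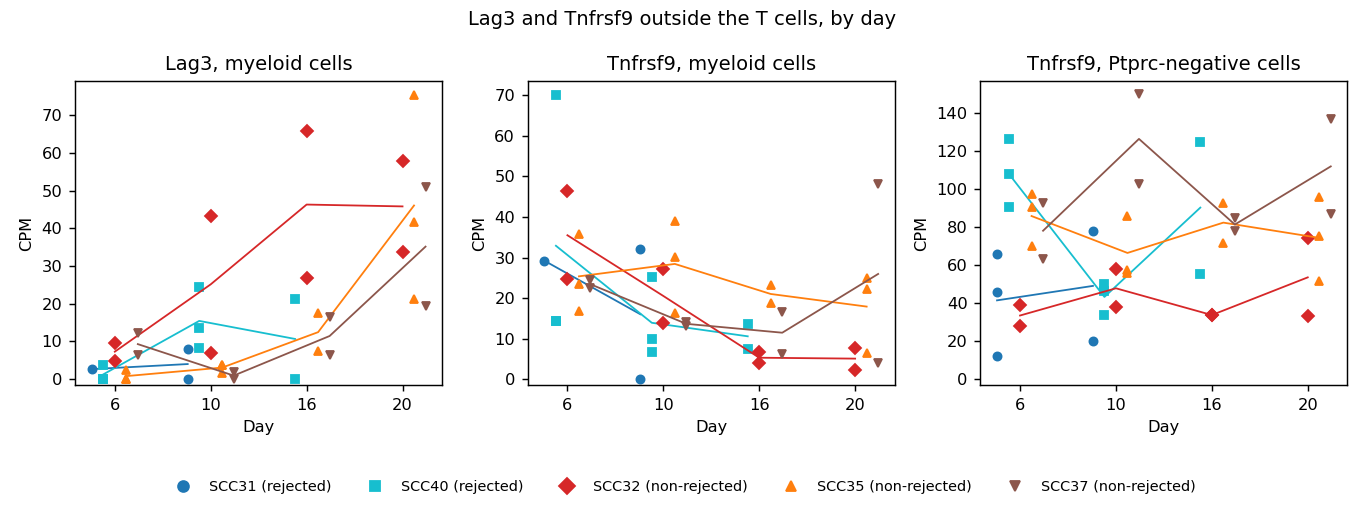
CPM (y axis, linear, a separate scale per panel) by day (x axis, evenly spaced) of Lag3 in myeloid cells, Tnfrsf9 in myeloid cells and Tnfrsf9 in Ptprc-negative cells; each point is 1 tumour, coloured by line, and lines join the means of a line's tumours. Myeloid Lag3 is at most 12.2 CPM at day 6 and reaches 75.4 CPM at day 20, and Tnfrsf9 in Ptprc-negative cells of SCC40 is lower at day 10 than at day 6.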

How the data were processed

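Deposited UMI counts per gene and barcode, with hashtag counts, came from 10x 5′ libraries that the authors ran through Cell Ranger 6.0.0 on mm10, per the submitters' processing notes. Of 80184 barcodes, 66887 passed a filter of at least 300 genes and at most 15% mitochondrial UMIs, and 55005 were left after removing hashtag doublets (9100), Scrublet doublets (2640) and barcodes with under 10 counts of their leading hashtag, or under 2 times those of the next. Gene UMIs per library ran from 5691826 to 112724631. Counts were summed per tumour and gate. The tumour was the replicate, and nothing in the labels says more on whether tumours were independent than their mouse and cage numbers, of which 29 distinct pairs occur among 43 tumours with no repeat in a line. Sums were tested with edgeR 4.0.16 (TMM, filterByExpr, quasi-likelihood test), with p-values adjusted by Benjamini-Hochberg over all genes tested and called under 0.05. Day contrasts average the lines, and gates were compared with the tumour as a block. Tumours numbered 3 came from the mixed library. The replicate block, which goes by that number, is therefore in part a library block. Line outcomes were compared by exact two-sided permutation over lines.

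On counts simulated for the last-day contrast in all T cells (6017 genes), 33% of genes changed by 1 on the log2 scale and 64% of those changed by 2 were recovered. In CD8 cells (2567 genes) these shares were 13% and 64%, in CD4 cells (3006 genes) 17% and 68%, and between Foxp3+ and CD4 cells (1863 genes) 50% and 93%. Genes without a set change were 4 of 101 calls in all T, 7 of 84 in CD8 and 5 of 90 in CD4 cells. Between Foxp3+ and CD4 cells they were 7 of 150. Apart from the set changes, each gene had a common mean over the simulated sums. The shares therefore do not cover differences between lines or libraries. By rule, the 8 genes are always named, from each other list up to 4 called genes with the largest changes, and for each of the 8 the 3 genes most alike; the members and lists were chosen with earlier results of these data known. Tests among lines and of outcome in all T and CD4 cells, sums of at least 3 cells, day 10 overlaps and pooled ratios were added after the data were seen. Intervals cover counting error only. Alternatives changed the normalization, tool, filters, doublet removal, cell gate, libraries and tumours used.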

Additional observations from a re-analysis of the deposited data

Results flagged for a closer look

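In 5 of 48 groups of sums 1 tumour stood apart from the rest by Dixon's test, which chance does in about 1 in 20 groups. Each rested on few cells. Ctla4 in CD4 cells of day 16 or 20 was 788.9 CPM in SCC32 day 16 tumour 1, where the next of 6 tumours had 430.3 (17 counts in 11 cells). Entpd1 in all T cells of day 6 was 117.9 CPM in SCC37 tumour 1, where the next of 10 had 39.9 (3 counts in 15 cells), and Havcr2 in the same tumour was 78.6 against 46.3 (2 counts). Icos in all T cells of day 6 was 1038.2 CPM in SCC37 tumour 2, with 432.3 in the next (26 counts in 11 cells). Tox in CD8 cells of day 6 was 16.3 CPM in SCC32 tumour 1 and 0 in the other 3 sums, from 1 count in 10 cells.

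In Ptprc-negative cells the change of Tnfrsf9 from day 6 to day 10 differed between lines in an interaction test by edgeR (adjusted p = 0.02704), with lower day 10 values in SCC40 and higher ones in SCC37.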

How the results depend on the processing

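Small sums limit these results: a count of 0 in a sum of 10 cells leaves a wide range of levels, and no sum of Foxp3+ cells exists at day 6. Numbers of the 8 genes called moved as follows; the cause was not tested. At day 10 in all T cells (1 called) it was 2 with at least 3 Cd3 UMIs, no low count filter, the replicate block or no Scrublet, and 0 with at least 20 cells a sum or without the mixed library. On the last day (3) it was 1 with at least 3 Cd3 UMIs or at least 20 cells a sum. Between lines at day 10 (2) it was 4 with no low count filter and 5 without the mixed library. In CD8 cells on the last day (2) it was 0 with DESeq2, at least 3 cells a sum, hashtag ratio 4, the replicate block, no Scrublet or no mixed library, 1 with RLE or a stricter cell filter, and 4 with no low count filter. At day 10 in CD8 cells (0) it was 1 with no low count filter. In CD4 cells at day 10 (0) it was 1 with no low count filter and 2 without the mixed library, and between lines (4) it was 1 with at least 3 cells a sum and 2 with the replicate block, without Scrublet or without the mixed library.

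Of ligands, those called in Ptprc-negative cells were 4 at day 10 with the replicate block (2 otherwise) and 3 on the last day with a stricter cell filter (5), and in myeloid cells 2 and 1 without Scrublet (4 and 3). Ptprc-negative cells with a Tnfrsf9 UMI were 11.4% when thinned to 2000 UMIs (6.49% at 1000).

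Leaving out 1 tumour at a time gave 0 to 2 genes called in all T cells at day 10, 2 to 3 on the last day, 1 to 4 between lines and 0 for the line by day interaction. It gave 0 in CD8 cells at day 10, between lines and for the interaction, and 0 to 2 on the last day. In CD4 cells it gave 0 to 3 at day 10, 0 on the last day and 2 to 4 between lines. Between gates it gave 3 for Foxp3+ against CD4 and 4 to 5 for CD8 against CD4 and Foxp3+ against CD8. For ligands it gave 2 to 3 and 3 to 6 in Ptprc-negative cells at day 10 and on the last day, and 2 to 4 in myeloid cells on both.

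Directions turned for 5 named genes. Ctla4 in CD4 cells at day 10 was -0.11 with at least 3 Cd3 UMIs and -0.029 with at least 20 cells a sum. Ifng there was 0.66 and Nr4a1 -0.036 with at least 20 cells a sum, and Nr4a1 -0.12 with hashtag ratio 4. Klf2 in CD8 cells on the last day was 0.78 with at least 3 cells a sum, and Tnfsf9 in myeloid cells at day 10 was -0.091 without SCC31 day 10 tumour 3 and at most 1.38 without 1 of the other tumours.

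Over all genes, calls ranged under the alternatives that kept every tumour or left out a library from 95 to 239 for Foxp3+ against CD4 (161 in the reported fit), 220 to 591 for CD8 against CD4 (362) and 155 to 289 for Foxp3+ against CD8 (233). They ranged in all T cells from 4 to 115 at day 10 (31), 32 to 270 on the last day (158), 51 to 879 between lines (88) and 0 to 115 for the interaction (0). In CD8 cells they ranged from 0 to 41 at day 10 (5), 11 to 348 on the last day (164), 0 to 10 between lines (0) and 0 to 46 for the interaction (0), and in CD4 cells from 3 to 266 (182), 1 to 78 (23) and 57 to 409 between lines (187). In myeloid cells they ranged from 351 to 911 at day 10 (653), and in Ptprc-negative cells from 618 to 1388 at day 10 (958) and from 519 to 2321 for the interaction (545). Leaving out 1 tumour moved some of these counts by over 1.5 times: to 87 for Foxp3+ against CD4 (without SCC40 day 16 tumour 2) and 147 for Foxp3+ against CD8 (SCC32 day 10 tumour 2). In all T cells the counts went to between 5 (SCC31 day 10 tumour 3) and 61 (SCC35 day 6 tumour 2) at day 10, to 60 on the last day (SCC35 day 6 tumour 3), to between 40 (SCC37 day 10 tumour 2) and 284 (SCC35 day 10 tumour 3) between lines and to 33 for the interaction (SCC31 day 10 tumour 3). In CD8 cells they went to between 0 (SCC32 day 6 tumour 1) and 51 (SCC31 day 6 tumour 3) at day 10, to between 12 (SCC32 day 6 tumour 1) and 260 (SCC35 day 20 tumour 3) on the last day and to 3 for the interaction (SCC35 day 20 tumour 3). In CD4 cells they went to 6 at day 10 and 2 on the last day (SCC40 day 6 tumour 1), to 38 on the last day (SCC32 day 6 tumour 2) and to 69 between lines (SCC32 day 10 tumour 2). A line whose only day 6 sum is left out leaves the contrast. This holds for SCC32 day 6 tumour 1 in CD8 cells and SCC40 day 6 tumour 1 in CD4 cells. In myeloid cells at day 10 they went to 415 (SCC31 day 10 tumour 3), and for the Ptprc-negative interaction to between 330 (SCC40 day 10 tumour 1) and 1135 (SCC31 day 6 tumour 3). RLE also moved the median of all genes in CD8 cells at day 10 from 0.14 to 0.03.

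Of 24 pairs of differences between tumour numbers, 4 correlated over 0.1 (median -0.01, -0.20 to 0.47). All 4 held number 3, as did those at -0.14 and -0.18. The replicate block is no pairing.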
